A study of Homo sapiens with 16 samples.

Results

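The comparison described here set PC9 LeptoM cells carrying shLCN2_2, the second of a pair of short hairpins against lipocalin-2 (LCN2), against PC9 LeptoM cells carrying a control hairpin (shCTL), with 2 RNA-seq libraries in each group. Of 19454 genes in the PC9 table, 15650 had a mean normalised read count of at least 10 over its 8 libraries and make up the comparison. The other 3804 genes lay under that minimum and were not tested. The value of a gene is its reads divided by a size factor for the library, with no correction for gene length, so levels are compared between libraries and not between genes.

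PC9 is a lung cancer line that carries an activating EGFR mutation, and LeptoM names a derivative of it that grows as metastases in the leptomeninges, the thin membranes that hold the cerebrospinal fluid. Every LeptoM group had been transduced with a lentiviral hairpin, either shLCN2_2, shLCN2_1 or shCTL, while parental PC9 cells carried none. The labels do not say whether a hairpin line is a clone or a pool. Separate cultures are not stated for the 2 libraries of any group, so each p-value reflects library spread that could be technical only. Cells were grown in dishes for 2 days before lysis, and the labels name no other cells in the dish. The series holds 16 libraries in all, since MDA231 breast cancer cells were studied in the same 4 groups.

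Lipocalin-2 is a secreted protein that binds siderophores, small molecules that chelate iron, and can carry that iron into cells. In mammals it is an acute phase protein, and its gene is switched on by IL-1, IL-17 and NF-kB in epithelia and neutrophils. A short hairpin RNA is processed by the cell's own small RNA machinery into a strand that leads Argonaute proteins to matching transcripts, so a hairpin lowers its target rather than removing it. The question of the design is which transcripts respond to lipocalin-2 depletion.

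Depth in PC9 was 36796098 to 51759154 gene reads per library, and 3 reads, the floor used here, correspond to a value of 2.41 to 3.52. The other 6 libraries were not all alike, but the shLCN2_1 libraries stood furthest apart. Their reads differed more from each other, with a chi-square per degree of freedom of 43.5, against 5.32 for shLCN2_2, 3.09 for shCTL and 19.2 for parental cells. Their values also fell with the GC content of genes, with Spearman correlations across genes of -0.549 and -0.645. The correlations were 0.467 and 0.529 in the shLCN2_2 libraries, 0.463 and 0.363 in the shCTL libraries and -0.166 and 0.144 in the parental libraries. The shLCN2_1 libraries enter the comparison of shLCN2_2 with shCTL through the shared estimate of the spread. They also enter through the minimum mean, which is taken over all 8 libraries, and counts without them are given beside the main ones. The 10 epithelial markers summed to 943990 and 948840 in the shLCN2_2 libraries and to 917890 and 874990 in the shCTL libraries, and none of them was at 0. Single markers went both ways, with 4 positive and 6 negative fold changes against shCTL (median -0.05). EPCAM averaged 11890 with shLCN2_2 and 15950 with shCTL, and CDH1 27600 with shLCN2_2 and 20210 with shCTL.

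LCN2 itself (GRCh38 chromosome 9, 128149071 to 128153455, plus strand) was reduced but not lost with shLCN2_2. It had 21415 and 18861 normalised reads in the shLCN2_2 libraries, 3575 and 7046 in the shLCN2_1 libraries, 51004 and 49615 in the shCTL libraries and 21140.4 and 23247 in the parental libraries. The shLCN2_2 and shCTL libraries did not overlap, and the shLCN2_2 libraries lay beside the parental ones and above both shLCN2_1 libraries. The means were 20138 ± 1806 with shLCN2_2 and 50309.7 ± 982 with shCTL (SD, n = 2 each), a log2 fold change of -1.32 (SE 0.255, adjusted p = 0.0111, limma). LCN2 stayed 2.0 log2 units higher with shLCN2_2 than with shLCN2_1 (adjusted p = 0.000346), and its difference between shLCN2_2 and parental cells was -0.14 (adjusted p = 0.657). With 1 library left out the value stayed between -1.41 and -1.23, but the call was lost in each fit without a compared library, at adjusted p = 0.0705 and 0.0907 without shLCN2_2 replicate 1 and 2, and 0.0818 and 0.0817 without shCTL replicate 1 and 2.

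**Figure D1:**
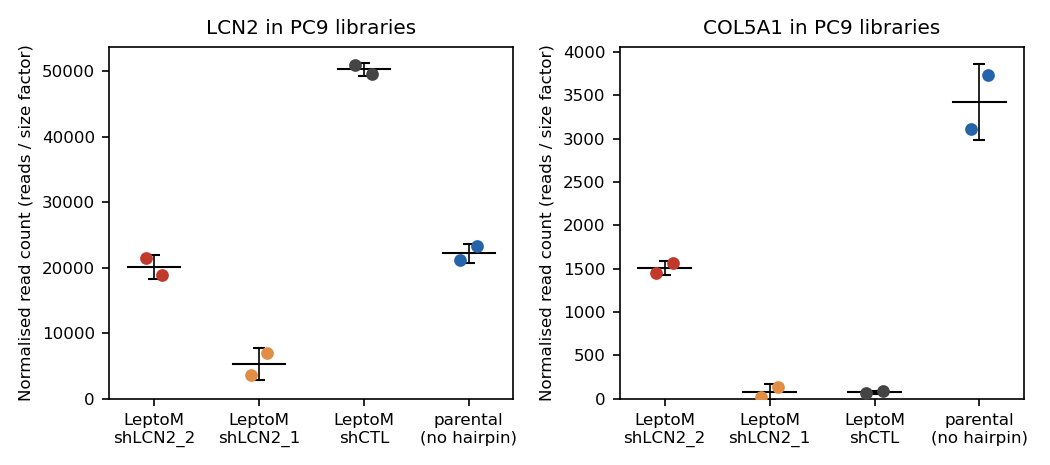
Normalised read count (reads divided by the library's size factor) of LCN2 on the left and COL5A1 on the right in each PC9 library. Points are libraries, horizontal lines are means and bars are 1 SD (n = 2). LCN2 with shLCN2_2 lies beside the parental level and above shLCN2_1, and COL5A1 is high with shLCN2_2 (1449 and 1567) and in parental cells and near the axis in the other groups.

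With shLCN2_2, 1535 genes (9.81% of those tested) were called higher and 1518 (9.7%) lower than with shCTL at an adjusted p under 0.05, 19.5% in all, while 34.4% had an unadjusted p under 0.05. Rises were larger than falls. The median log2 fold change was 0.67 among genes called higher and -0.39 among genes called lower, and 447 genes (2.86%) were called higher by at least 1 log2 unit, against 55 (0.351%) called lower by as much. The median over all genes tested was -0.00. The libraries of the groups did not overlap for 75.1% of the genes tested, so a lack of overlap alone was common. The number of calls changed when single libraries were left out. It was 361 and 556 without shLCN2_2 replicate 1 and 2, and 505 and 367 without shCTL replicate 1 and 2. Leaving out shLCN2_1 replicate 1 or 2 gave 5461 and 5469 calls, and leaving out both gave 5429. For the gene groups described below, the range of calls over the fits without each of the 4 compared libraries is given as the range without a library. The count without both shLCN2_1 libraries is given as well. Counts against shCTL in these groups stand beside the 9.81% of all genes called higher and 9.7% called lower.

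The largest rises included secreted and matrix proteins and a few interferon-stimulated genes. COL5A1, a fibrillar collagen chain (GRCh38 chromosome 9, 134641774 to 134844843, plus strand), had 1449 and 1567 normalised reads with shLCN2_2, 15.7 and 139.9 with shLCN2_1, 61.5 and 86.4 with shCTL and 3109.8 and 3735 in parental cells. Its shLCN2_2 libraries lay above both other hairpin groups and below the parental libraries. The log2 fold change against shCTL was 4.35 (SE 0.781, adjusted p = 0.00864), a call lost without any 1 of the 4 compared libraries (adjusted p = 0.0657 to 0.0749). SERPING1, the inhibitor of the complement protease C1, had 57.9 and 51.1 with shLCN2_2 and 6.42 and 1.02 with shCTL, where it rested on 8 reads in all (3.84 log2 units, adjusted p = 0.00492). ARHGAP31, which turns off the small GTPases CDC42 and RAC1, had 224 and 229 with shLCN2_2 and 22.0 and 34.6 with shCTL, without overlap, and 74.5 and 161 with shLCN2_1. Its fold change of 2.99 (SE 0.352, adjusted p = 0.00212) was the only one among the 12 highest that was called in each of the 4 fits without a compared library.

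The 12 highest also held the Wnt ligand WNT3A, with 94.9 and 81.4 normalised reads with shLCN2_2 and 13.8 and 8.13 with shCTL (2.94 log2 units, adjusted p = 0.0381). The prostaglandin transporter SLCO2A1 had 53.9 and 59.8 with shLCN2_2 and 10.1 and 5.08 with shCTL (2.81 log2 units, adjusted p = 0.00794). The adaptor SHC2 and the glycosyltransferase B4GALNT2 rose by 3.22 and 2.75 log2 units (adjusted p = 0.011 and 0.00958). WNT3A and SHC2 were called in none of the 4 fits without a compared library, and SLCO2A1 and B4GALNT2 in 1 each. The remaining members of the 12 are the cystatins and interferon-stimulated genes described below.

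The largest falls were smaller in fold than the largest rises. HPD, an enzyme of tyrosine breakdown, had 16.1 and 25.1 normalised reads with shLCN2_2 and 128 and 115 with shCTL. The groups were far apart, with a log2 fold change of -2.53 (SE 0.301, adjusted p = 0.00223). IL6, an inflammatory cytokine, had 20.9 and 22.5 with shLCN2_2, 29.4 and 40.7 with shLCN2_1, 86.2 and 91.5 with shCTL and 111 and 113 in parental cells. Both LCN2 hairpin groups lay below shCTL and parental cells, and the fall with shLCN2_2 was -1.98 (SE 0.220, adjusted p = 0.00172). PPIF, the mitochondrial cyclophilin D, had 3154 and 3227 with shLCN2_2, 5909 and 6818 with shLCN2_1, 8496 and 8639 with shCTL and 14285 and 14349.9 in parental cells. Its fall of -1.42 had an SE of 0.0740 (adjusted p = 0.000211), and the shLCN2_2 libraries were the lowest of the 8. GDPD3, a phospholipase, had 505 and 658 with shLCN2_2 and 1492 and 1453 with shCTL (-1.35 log2 units, adjusted p = 0.00157). HPD, IL6, PPIF and GDPD3 were called in all 4 fits without a compared library. The adhesion protein CLMP (-1.53, adjusted p = 0.0071) and the collagen chain COL8A1 (-1.46, adjusted p = 0.0371) fell too, but CLMP was called in 1 of those fits and COL8A1 in none.

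Ranked by the change in value, the rises were led by abundant epithelial and secretory transcripts. KRT7, a keratin of simple epithelia, had 159155 and 167193 normalised reads with shLCN2_2 and 131587 and 125638 with shCTL (0.34 log2 units, adjusted p = 0.0463). KRT19, another such keratin, rose by 0.34 (adjusted p = 0.0365) and PSAP, the precursor of lysosomal saposins, by 0.49 (adjusted p = 0.00245). PSAP was called in all 4 fits without a compared library and KRT7 and KRT19 in none, and the calls of both keratins were lost when the GC trend of each library was removed. The falls in value were led by glycolysis, chaperone, translation and ferritin transcripts. GAPDH had 334407 and 340130.0 with shLCN2_2 and 490757 and 475395 with shCTL (-0.52 log2 units, adjusted p = 0.00352), and HSP90AA1 had 245028 and 236383 with shLCN2_2 and 346091 and 350188 with shCTL (-0.53 log2 units, adjusted p = 0.00352). EEF1A1, which brings aminoacyl-tRNA to the ribosome, had 142976 and 143084 with shLCN2_2 and 227288 and 218795 with shCTL. The groups did not overlap, and the fall was -0.64 (SE 0.0862, adjusted p = 0.00332).

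**Figure D2:**
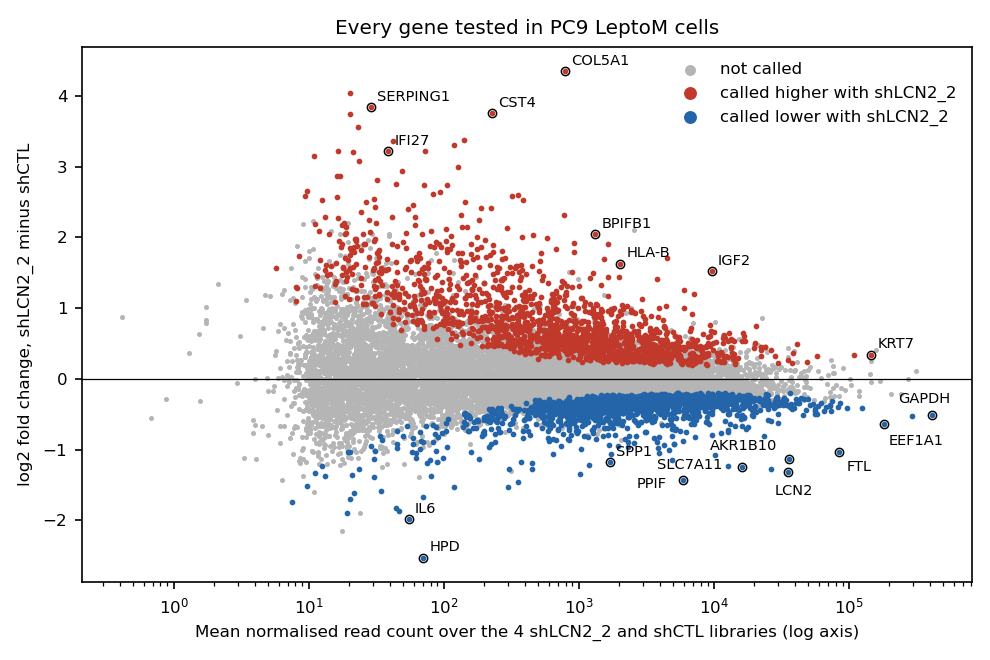
Log2 fold change, shLCN2_2 minus shCTL, of each of the 15650 genes tested in PC9 LeptoM cells against the mean normalised read count over the 4 libraries compared (log axis). Red points were called higher and blue points lower with shLCN2_2, grey points were not called, and ringed points are genes named in the text. Large rises lie at low and middle levels, while the most abundant genes lie mostly below 0.

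Interferon-stimulated genes rose together. Of 39 tested, 22 were called higher and none lower, with a median log2 fold change of 0.54 beside -0.00 over all genes, and 38 of the 39 fold changes were positive. Without both shLCN2_1 libraries 28 were called higher, and the range without a library was 3 to 5. IFI27, a mitochondrial protein induced by type I interferon, had 70.0 and 71.9 normalised reads with shLCN2_2, 3.15 and 16.5 with shLCN2_1, 7.34 and 6.10 with shCTL and 1.98 and 1.17 in parental cells. OAS2, which makes the second messenger of RNase L when it meets double-stranded RNA, had 91.7 and 63.2 with shLCN2_2, 22.0 and 37.4 with shLCN2_1, 8.26 and 5.08 with shCTL and 1.98 and 0 in parental cells. IFI6, which restrains apoptosis and flavivirus replication, had 326 and 275 with shLCN2_2, 73.4 and 102 with shLCN2_1, 77.1 and 49.8 with shCTL and 71.4 and 61.1 in parental cells. For all 3 genes the shLCN2_2 libraries were the highest of the 8. The fold changes against shCTL were 3.22 for IFI27 (adjusted p = 0.0115), 3.36 for OAS2 (adjusted p = 0.00707) and 2.25 for IFI6 (adjusted p = 0.00192), and IFITM1, which blocks virus entry, rose by 2.18 (adjusted p = 0.0351). The shCTL values of IFI27, OAS2 and IFITM1 rest on 14, 14 and 12 reads. IFI6 was called in all 4 fits without a compared library, OAS2 in 1 and IFI27 and IFITM1 in none.

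Several interferon-stimulated genes did not pass the test. ISG15, a ubiquitin-like modifier, had 508 and 607 normalised reads with shLCN2_2 and 379 and 367 with shCTL (log2 difference 0.57, adjusted p = 0.2). The groups did not overlap for ISG15. The shLCN2_1 libraries were also above shCTL for part of the list, with 19 members called higher and 6 lower in that comparison. Against shLCN2_1, 12 members were higher with shLCN2_2 and 4 lower (median 0.32, beside 28.9% of all genes called higher and 25.6% lower).

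The interferon-stimulated response element, a promoter site through which type I interferon acts, was searched as GAAA, any 2 bases and GAAA again, on both strands of RefSeq promoters (GRCh38.p14, 250 bases before to 50 after the gene start). Of the 22 called members 16 had a promoter in the table, and 11 of these (68.8%) held the letters. So did 10 of 13 members not called (76.9%), 284 of 10116 tested genes with a promoter (2.81%) and 3.65% of all 27305 promoters. The promoters of 3 of the 4 called members named above follow, with matches in capitals, to show where the letters sit in members that hold them. IFI27 lies at chr14:94110486-94110785 on the plus strand with 2 matches, IFI6 at chr1:27672143-27672442 on the minus strand with 3, and IFITM1 at chr11:313790-314089 on the plus strand with 2. A match describes the letters and does not show that the element was bound.
IFI27: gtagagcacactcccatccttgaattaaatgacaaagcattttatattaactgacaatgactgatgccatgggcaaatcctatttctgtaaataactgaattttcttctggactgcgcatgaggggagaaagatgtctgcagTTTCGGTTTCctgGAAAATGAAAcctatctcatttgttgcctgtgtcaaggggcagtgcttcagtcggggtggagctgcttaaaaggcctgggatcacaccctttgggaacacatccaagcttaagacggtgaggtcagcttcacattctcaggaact
IFI6: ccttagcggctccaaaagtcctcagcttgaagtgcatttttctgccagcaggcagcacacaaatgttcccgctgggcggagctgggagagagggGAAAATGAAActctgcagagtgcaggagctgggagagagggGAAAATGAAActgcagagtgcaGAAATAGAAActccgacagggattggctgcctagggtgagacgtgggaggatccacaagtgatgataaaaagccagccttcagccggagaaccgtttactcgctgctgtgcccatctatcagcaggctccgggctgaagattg
IFITM1: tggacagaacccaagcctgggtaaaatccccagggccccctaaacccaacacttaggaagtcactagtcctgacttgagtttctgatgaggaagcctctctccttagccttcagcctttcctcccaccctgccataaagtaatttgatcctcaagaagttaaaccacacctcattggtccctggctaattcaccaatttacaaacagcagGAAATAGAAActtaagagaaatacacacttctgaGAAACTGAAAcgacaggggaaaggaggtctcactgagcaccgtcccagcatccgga

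Genes of antigen presentation rose in part. MHC class I presentation, which shows peptides from inside the cell to T cells, had 7 of 20 members higher and 0 lower (median 0.04; 7 higher and 2 lower without both shLCN2_1 libraries, 1 in each fit without a library). HLA-B had 3133 and 3006 normalised reads with shLCN2_2, 1038 and 1702 with shLCN2_1, 977 and 1005 with shCTL and 2774 and 3222 in parental cells. The shLCN2_2 libraries were above both other hairpin groups and overlapped the parental ones, and the rise over shCTL was 1.63 (SE 0.196, adjusted p = 0.00228). HLA-F rose by 1.19 (adjusted p = 0.0114), the peptide loading factor TAPBP by 0.50 (adjusted p = 0.00616) and HLA-E, a ligand of natural killer receptors, by 0.47 (adjusted p = 0.0156). HLA genes are near copies of each other, and how reads shared between them were counted was not given in the sources used here. MHC class II presentation had 4 of 9 members higher and 0 lower (median 0.38; 5 without both shLCN2_1 libraries, 2 in each fit without a library). CD74, the invariant chain that guides class II molecules, had 164 and 161 with shLCN2_2, 49.3 and 59.5 with shLCN2_1, 23.9 and 26.4 with shCTL and 4.96 and 7.05 in parental cells. All other libraries were lower than these, with a rise of 2.65 (SE 0.250, adjusted p = 0.00113). HLA-DQB1 had 259 and 230.3 with shLCN2_2 and 51.4 and 34.6 with shCTL (2.51 log2 units, adjusted p = 0.00312), and CTSS, the protease that trims the invariant chain, rose by 0.85 (adjusted p = 0.0196).

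Of 15 complement genes 6 rose and 1 fell (median 0.49; 10 and 2 without both shLCN2_1 libraries, range without a library 1 to 2). Besides SERPING1, CFD, the protease factor D of the alternative pathway, had 1510.0 and 1365 normalised reads with shLCN2_2, 109 and 256 with shLCN2_1, 438 and 386 with shCTL and 38.7 and 59.9 in parental cells. It was highest in the shLCN2_2 libraries, with a rise of 1.80 (SE 0.360, adjusted p = 0.0126). The classical pathway proteases C2 and C1R rose by 1.17 (adjusted p = 0.0141) and 1.02 (adjusted p = 0.00251). C3, the central component, had 15095 and 13461 with shLCN2_2 and 9551 and 9006 with shCTL and was not called (log2 difference 0.62, adjusted p = 0.372). By contrast, only IL6 of 25 NF-kB inflammatory genes was called (0 higher, 1 lower, median -0.04; 1 higher and 3 lower without both shLCN2_1 libraries). The fits without a library called 1 each. Against shLCN2_1, 13 of the 25 were higher with shLCN2_2 and 1 lower (median 1.04). Over all genes, 28.9% were called higher and 25.6% lower in that comparison. Its fold change followed GC content (Spearman correlation across genes 0.699), and the part of GC content in the count was not tested.

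Macrophage and granulocyte markers mostly lay higher with shLCN2_2, as these immune genes did, though not all of them. The count called higher among them stands beside 9.81% of all genes tested. Of 18 on that list 10 were in the table, and they summed to 1613 and 1604 in the shLCN2_2 libraries and to 838 and 862 in the shCTL libraries. Of the 6 tested, ITGAM and CSF1R were called higher (3 members without both shLCN2_1 libraries, and 0 in each fit without a library), by 1.13 and 1.02 log2 units (adjusted p = 0.00514 and 0.0234). Among the 6, 5 fold changes were positive and 1 negative (median 0.86). CD14 averaged 242.6 with shLCN2_2 and 149.3 with shCTL, and CD68 149.4 with shLCN2_2 and 109.5 with shCTL. The leukocyte marker PTPRC averaged 12.7 with shLCN2_2 and 16.4 with shCTL. The macrophage receptor MRC1 averaged 1.70 with shLCN2_2 and 1.84 with shCTL, both under the floor of 3 reads. LYZ averaged 16.2 with shLCN2_2 and 1.43 with shCTL. Markers of lymphocytes summed to 41.8 and 36.4 with shLCN2_2 and to 29.4 and 37.6 with shCTL, and markers of fibroblasts and meninges to 17680 and 16563 with shLCN2_2 and to 16741 and 16701 with shCTL. Endothelial markers summed to 2222 and 2013 with shLCN2_2 and to 1477 and 1451 with shCTL. Their part in the rises was not tested, and in bulk RNA fewer or more cells of a kind and less or more RNA per cell cannot be told apart.

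Secreted proteases and their inhibitors either rose or were not called. Of 30 tested, 15 were called higher and 0 lower (median 0.44; 19 and 2 without both shLCN2_1 libraries, range without a library 2 to 7). The salivary cystatins, inhibitors of cysteine proteases, led them. CST4 had 494 and 356 normalised reads with shLCN2_2, 16.8 and 43.0 with shLCN2_1, 33.9 and 26.4 with shCTL and 2.98 and 9.39 in parental cells. A wide gap parted the shLCN2_2 libraries from the rest, and the rise was 3.76 (SE 0.536, adjusted p = 0.00392). CST1 rose by 3.38 (adjusted p = 0.00535) and CST2 by 3.32 (adjusted p = 0.0123). These 3 genes are near copies of each other, so reads may have been shared among them, and CST4 and CST1 were each called in 2 of the 4 fits without a compared library and CST2 in none. MMP28, a secreted metalloproteinase, had 535 and 423 with shLCN2_2 and 112 and 103 with shCTL (2.14 log2 units, adjusted p = 0.00718).

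Airway secretory proteins showed the same direction, with 7 of 19 mucins and airway proteins higher and 0 lower (median 0.41; 9 and 1 without both shLCN2_1 libraries, 2 in each fit without a library). BPIFB1, an antimicrobial protein of airway fluid, had 2176 and 2089.5 normalised reads with shLCN2_2, 405 and 642 with shLCN2_1, 539.5 and 489 with shCTL and 107 and 106 in parental cells. The shLCN2_2 libraries were the highest of the 8, and the rise of 2.05 (SE 0.190, adjusted p = 0.00111) was called in all 4 fits without a compared library. Its relative BPIFA1 rose by 2.55 (adjusted p = 0.0212), and the membrane mucins MUC3A and MUC15 by 2.02 and 1.63 (adjusted p = 0.0154 and 0.0382). Other secretory transcripts of high abundance were not called, such as SLPI, an inhibitor of elastase, with 21470.1 and 19498 with shLCN2_2 and 15933 and 14958 with shCTL (log2 difference 0.41, adjusted p = 0.196).

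Epithelial junction and keratin genes rose in 10 of 29 cases and fell in 1 (median 0.14; 11 and 3 without both shLCN2_1 libraries, range without a library 2 to 4). CDH3, the adhesion protein P-cadherin, had 8528 and 8324 normalised reads with shLCN2_2 and 5302 and 4903 with shCTL (0.72 log2 units, adjusted p = 0.00128), and the tight junction protein CLDN1 had 4659 and 4565 with shLCN2_2 and 2886 and 2764 with shCTL (0.71 log2 units, adjusted p = 0.0205). Neither overlapped between the groups. EPCAM was the member that fell, averaging 11890 with shLCN2_2 and 15950 with shCTL (-0.42 log2 units). Among 18 regulators of epithelial transcription and splicing, 3 rose and 1 fell (median 0.11; 5 and 2 without both shLCN2_1 libraries, 1 in each fit without a library), led by the ETS factors ELF5, with 99.7 and 94.4 with shLCN2_2 and 29.4 and 30.5 with shCTL (1.66, adjusted p = 0.00958), and SPDEF, with 535 and 537 with shLCN2_2 and 193 and 183 with shCTL (1.51, adjusted p = 0.00157). Of 27 squamous and cornified envelope genes 5 rose and 0 fell (median 0.12; 9 and 3 without both shLCN2_1 libraries, 1 in each fit without a library), among them KRT16 by 1.15 (adjusted p = 0.00114).

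Matrix genes did not move as a block. Of 22 collagens and cross-linking enzymes 4 rose and 2 fell (median 0.14; 8 and 2 without both shLCN2_1 libraries, 1 in each fit without a library). Besides COL5A1, COL17A1, a collagen of hemidesmosomes, had 674 and 650.3 normalised reads with shLCN2_2, 54.5 and 227 with shLCN2_1, 102 and 127 with shCTL and 35.7 and 24.7 in parental cells, and COL6A2, a chain of the microfibrillar collagen VI, had 1462 and 1472 with shLCN2_2, 94.4 and 219 with shLCN2_1, 387 and 383 with shCTL and 1075 and 1769.7 in parental cells. COL17A1 was highest with shLCN2_2, while for COL6A2 the parental libraries overlapped those with shLCN2_2. The rises were 2.53 (adjusted p = 0.0163) and 1.93 (adjusted p = 0.00977). Of 20 laminins and integrins 4 rose and 0 fell (median 0.15; 8 and 0 without both shLCN2_1 libraries, and 0 in each fit without a library), including ITGA5, the fibronectin receptor chain, by 0.68 (adjusted p = 0.013).

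Signalling genes rose in the Wnt and TGF-beta groups. Of 26 Wnt regulators and targets 11 rose and 1 fell (median 0.54; 16 and 2 without both shLCN2_1 libraries, range without a library 1 to 2). LGR6, a receptor for R-spondin, had 187 and 183 normalised reads with shLCN2_2 and 29.4 and 24.4 with shCTL. The groups were far apart, with a rise of 2.74 (SE 0.262, adjusted p = 0.00114). The ligand WNT10A rose by 1.39 (adjusted p = 0.00353). Of 24 TGF-beta pathway genes 9 rose and 1 fell (median 0.40; 13 and 3 without both shLCN2_1 libraries, range without a library 3 to 5). The co-receptor TGFBR3 had 531 and 544 with shLCN2_2 and 261 and 267 with shCTL (1.02 log2 units, adjusted p = 0.00121), and BMP4, a ligand, and ID3, a target of BMP signalling, rose by 0.94 and 0.92 (adjusted p = 0.00343 and 0.0142). INHBA, which makes activin, was the member that fell, with 2661 and 2572 with shLCN2_2 and 5161 and 5131 with shCTL (-0.98 log2 units, adjusted p = 0.000945).

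The IGF axis had 6 of 17 members higher and 1 lower (median 0.17; 7 and 1 without both shLCN2_1 libraries, range without a library 2 to 3). IGF2, a growth factor, had 13897 and 14776 normalised reads with shLCN2_2, 2746 and 4859 with shLCN2_1, 5112 and 4880.0 with shCTL and 5574 and 6469 in parental cells. Every other library was far below those with shLCN2_2, and the rise over shCTL was 1.52 (SE 0.219, adjusted p = 0.00408), a call lost without shCTL replicate 2 (adjusted p = 0.0510). IGFBP5, which binds IGFs, and HTRA1, a protease that cuts IGF-binding proteins, rose by 2.05 and 2.15 (adjusted p = 0.0267 and 0.00317), HTRA1 against 13 reads in the shCTL libraries together. HTRA1 had 30.6 and 32.0 with shLCN2_2, 25.2 and 36.3 with shLCN2_1 and 6.42 and 6.10 with shCTL. Parental cells had 33.7 and 37.6 for HTRA1, so shCTL alone was low while the other groups overlapped or lay close. STC2, a secreted inhibitor of the protease that frees IGFs, fell, with 2959.8 and 3189 with shLCN2_2 and 6221 and 6143 with shCTL (-1.01 log2 units, adjusted p = 0.000602). The EGFR family had 2 of 13 members higher and 1 lower, beside 9.81% and 9.7% of all genes (median -0.02, or 0.05 with the GC trend removed; 2 and 2 without both shLCN2_1 libraries, range without a library 0 to 2). ERBB2 had 6689 and 6345 with shLCN2_2 and 4542 and 4281 with shCTL, and ERBB3 had 8440.2 and 8039 with shLCN2_2 and 5650.2 and 5494 with shCTL (both 0.56 log2 units, adjusted p = 0.00537 and 0.0105). NRG1, a ligand of the family, fell by -1.70 (adjusted p = 0.0286).

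Lysosome and autophagy genes rose more often than they fell, with 9 higher and 2 lower of 24 (median 0.15; 12 and 3 without both shLCN2_1 libraries, range without a library 3 to 4). The autophagy proteins WIPI1 and ULK1 had 493 and 513 and 1767 and 1872 normalised reads with shLCN2_2, against 264 and 278 and 1144 and 1109 with shCTL. TFEB, the transcription factor of lysosome genes, had 631 and 696 with shLCN2_2 and 408 and 362 with shCTL. None of the 3 overlapped between the groups, and the rises were 0.89, 0.69 and 0.78 (adjusted p = 0.00237, 0.0346 and 0.0144). GLA, a lysosomal galactosidase, fell by -0.70 (adjusted p = 0.00157). Targets of p53 were divided, with 6 of 23 higher and 3 lower (median 0.07; 10 and 4 without both shLCN2_1 libraries, range without a library 1 to 2). The cell cycle inhibitor CDKN1A had 3299.9 and 3398 with shLCN2_2 and 1781 and 1707 with shCTL (0.94 log2 units, adjusted p = 0.0168), and the antiproliferative gene BTG2 rose by 1.49 (adjusted p = 0.00202).

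Iron handling genes, the function linked to lipocalin-2, did not move one way. Of 23 tested, 2 rose and 5 fell (median -0.03; 3 and 10 without both shLCN2_1 libraries, range without a library 2 to 4). FTL, the light chain of the iron store ferritin, had 55478 and 54876 normalised reads with shLCN2_2, 99169 and 81425 with shLCN2_1, 116240.5 and 109902 with shCTL and 78859 and 78467 in parental cells. The shLCN2_2 libraries were the lowest of the 8, with a fall of -1.03 (SE 0.0913, adjusted p = 0.000992). The pseudogene FTLP2 fell by -1.67 (adjusted p = 0.00325), and its reads may belong to FTL. FTH1, the heavy chain of ferritin, had 113416 and 108766 with shLCN2_2 and 126909 and 124026 with shCTL and was not called (log2 difference -0.18, adjusted p = 0.116). CYBRD1, a ferric reductase of the cell surface, had 4290.5 and 3845 with shLCN2_2, 3998 and 3114 with shLCN2_1, 1837 and 1868 with shCTL and 712 and 644 in parental cells. Both LCN2 hairpin groups lay above shCTL, and the rise with shLCN2_2 was 1.13 (SE 0.121, adjusted p = 0.00157). NCOA4, which delivers ferritin to autophagy, fell by -0.47 (adjusted p = 0.00408), and BDH2, which makes a mammalian siderophore, rose by 0.56 (adjusted p = 0.0439). The transferrin receptor TFRC, outside the naming rule and chosen after its values were seen, had 27185 and 25664 with shLCN2_2 and 33336 and 34568 with shCTL (-0.36 log2 units, adjusted p = 0.0138).

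Of 17 heme metabolism genes 0 rose and 5 fell (median -0.26; 2 and 9 without both shLCN2_1 libraries, 1 in each fit without a library). ABCG2, which exports porphyrins and drugs, had 2517 and 2712 normalised reads with shLCN2_2 and 4561 and 4777 with shCTL, without overlap, a fall of -0.84 (adjusted p = 0.000992). FECH, which inserts iron into heme, fell by -0.42 (adjusted p = 0.0113). Nuclear genes of mitochondrial respiration and iron-sulfur proteins fell in 10 of 33 cases and rose in 0 (median -0.20; 21 and 0 without both shLCN2_1 libraries). Those calls did not hold in any fit without a compared library. SDHB, the iron-sulfur subunit of succinate dehydrogenase, had 2791 and 2779.7 with shLCN2_2 and 3672 and 3645 with shCTL (-0.39 log2 units, adjusted p = 0.0102).

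NRF2 antioxidant genes fell more often than they rose. NRF2 is the transcription factor that cells use against oxidants, and it drives the making of glutathione and of detoxifying reductases. Of 27 tested, 14 fell and 1 rose (median -0.45; 19 and 2 without both shLCN2_1 libraries, range without a library 7 to 9). SLC7A11, which imports cystine for glutathione, had 9241 and 9932 normalised reads with shLCN2_2, 22573 and 22493 with shLCN2_1, 22227 and 23329 with shCTL and 11032 and 10499 in parental cells. AKR1C1, a reductase of steroids and aldehydes, had 15311 and 15711 with shLCN2_2, 38338 and 45612 with shLCN2_1, 37203 and 38249 with shCTL and 4368 and 4004 in parental cells. AKR1B10, an aldehyde reductase, had 22820.1 and 22327 with shLCN2_2, 48393 and 46052 with shLCN2_1, 48546 and 50130.4 with shCTL and 4482 and 4115 in parental cells. For these 3 genes the shLCN2_1 libraries stood with shCTL, while the shLCN2_2 libraries were lower than either. The falls against shCTL were -1.25 for SLC7A11 (SE 0.0622, adjusted p = 0.000211), -1.28 for AKR1C1 (SE 0.0872, adjusted p = 0.000503) and -1.13 for AKR1B10 (SE 0.0636, adjusted p = 0.000227), and each was called in all 4 fits without a compared library. AKR1C1 has near copies, among which reads may have been shared.

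OSGIN1, a growth inhibitor induced by oxidants, had 764 and 822 normalised reads with shLCN2_2, 378 and 350.2 with shLCN2_1 and 1403 and 1378 with shCTL (-0.81 log2 units against shCTL, adjusted p = 0.0211). In this case shLCN2_1 was the lowest group. NFE2L2, which encodes NRF2 itself, had 4239 and 4239 with shLCN2_2 and 6409.9 and 6099.5 with shCTL (-0.56 log2 units, adjusted p = 0.00159), while its inhibitor KEAP1 had 5077 and 5113 with shLCN2_2 and 5622 and 5597 with shCTL and was not called (log2 difference -0.14, adjusted p = 0.35). The antioxidant response element was searched as the letters TGACNNNGC on both strands of the same promoters. It was found in 4 of 12 called members with a promoter in the table (33.3%), 2 of 9 members not called (22.2%), 15.1% of tested genes with a promoter and 13.6% of all promoters. GCLM, the regulatory subunit of glutathione synthesis, is a called member with these letters. Its promoter (chr1:93909381-93909680, GRCh38.p14, minus strand, 1 match in capitals on the opposite strand) is given to show where the letters sit. GCLM had 10207 and 10318 with shLCN2_2, 19267 and 18168 with shLCN2_1 and 15667 and 16225 with shCTL (-0.64 log2 units against shCTL, adjusted p = 0.00121). NFE2L2 and GCLM lie outside the naming rule and were chosen after their values were seen.
GCLM: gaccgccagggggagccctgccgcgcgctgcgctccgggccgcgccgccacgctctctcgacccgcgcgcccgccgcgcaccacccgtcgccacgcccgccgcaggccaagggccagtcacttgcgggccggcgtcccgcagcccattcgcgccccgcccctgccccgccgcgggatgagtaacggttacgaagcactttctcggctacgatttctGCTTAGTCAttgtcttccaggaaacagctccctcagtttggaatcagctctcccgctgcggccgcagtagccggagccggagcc

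Genes of amino acid supply and protein synthesis fell with the NRF2 group. ATF4 is the transcription factor of the amino acid response, and of 24 of its target genes 9 fell and 2 rose (median -0.28; 12 and 3 without both shLCN2_1 libraries, range without a library 5 to 6). Fold changes in that list ran from -1.25 to 2.05, so its largest change was a rise. Besides SLC7A11, ASNS, which makes asparagine, had 1876 and 1979 normalised reads with shLCN2_2 and 3444 and 3332 with shCTL (-0.81 log2 units, adjusted p = 0.0014). Of 20 aminoacyl-tRNA synthetases, which load amino acids on tRNA, 11 fell and 0 rose (median -0.28; 15 and 0 without both shLCN2_1 libraries, range without a library 3 to 5). FARSB had 4559.8 and 4661 with shLCN2_2 and 7659.6 and 7887 with shCTL (-0.75 log2 units, adjusted p = 0.00298), and GARS and YARS fell by -0.56 and -0.53 (adjusted p = 0.00139 and 0.0016). FARSB, GARS, YARS and ASNS were called in all 4 fits without a compared library.

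Ribosomal genes fell by small amounts in large numbers. Of 35 ribosomal protein genes 21 fell and 0 rose (median -0.30; 24 and 0 without both shLCN2_1 libraries, range without a library 2 to 3). RPL7, a protein of the large subunit, had 14198 and 13188 normalised reads with shLCN2_2 and 19919 and 20222 with shCTL (-0.55 log2 units, adjusted p = 0.00192), and RPS27 of the small subunit fell by -0.50 (adjusted p = 0.00396). Both have processed pseudogenes, so reads may have been lost or shared. Of 22 ribosome biogenesis genes and MYC targets 16 fell and 0 rose (median -0.34; 19 and 0 without both shLCN2_1 libraries, range without a library 0 to 2). ODC1, the first enzyme of polyamine synthesis, had 6734 and 7332 with shLCN2_2, 11949 and 15915 with shLCN2_1, 12235 and 12217 with shCTL and 28507 and 26170.3 in parental cells (-0.80 log2 units against shCTL, adjusted p = 0.00509). The shLCN2_2 libraries were the lowest of the 8, as they were for WDR12, an assembly factor of the large subunit, with 1006 and 1002 with shLCN2_2 and 1449 and 1432 with shCTL (-0.52, adjusted p = 0.00575).

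Chaperone, cell cycle, splicing and glycolysis genes mostly followed the same direction. Fold changes ran from -0.53 to 2.53 among heat shock genes and from -0.63 to 0.71 among glycolysis genes. The largest change in each of these lists was thus a rise. Of 18 heat shock genes 10 fell and 1 rose (median -0.29; 12 and 1 without both shLCN2_1 libraries, range without a library 0 to 1), among them HSPA8 (-0.42, adjusted p = 0.00958) and HSP90AB1 (-0.41, adjusted p = 0.00509). Of 36 DNA replication and mitosis genes 14 fell and 0 rose (median -0.27; 29 and 0 without both shLCN2_1 libraries, range without a library 0 to 1). FOXM1, a transcription factor of mitotic genes, had 7546 and 7866 normalised reads with shLCN2_2 and 11089 and 10474 with shCTL (-0.48 log2 units, adjusted p = 0.0135), and MCM7, a helicase subunit, had 12516 and 12243 with shLCN2_2 and 16936 and 16179.7 with shCTL (-0.42 log2 units, adjusted p = 0.00396). Of 27 splicing factors 12 fell and 0 rose (median -0.22; 20 and 0 without both shLCN2_1 libraries, and 0 in each fit without a library). Of 19 glycolysis genes 6 fell and 1 rose (median -0.15; 9 and 1 without both shLCN2_1 libraries, range without a library 1 to 2), with LDHB, a lactate dehydrogenase subunit, falling by -0.63 (adjusted p = 0.0013).

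**Figure D3:**
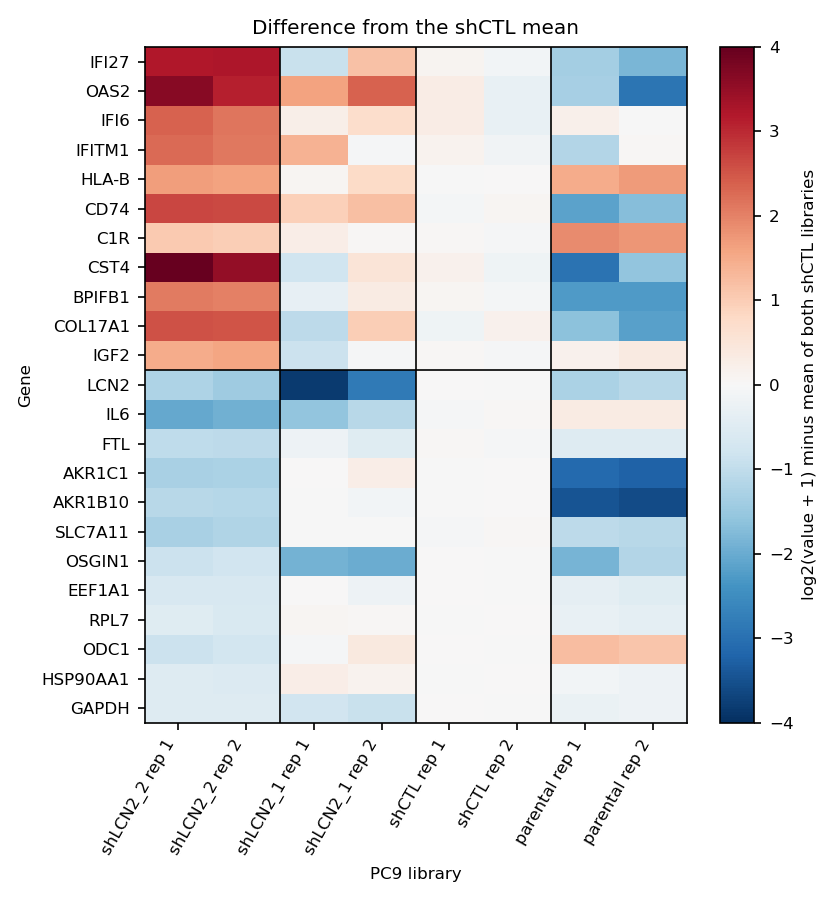
Log2(value + 1) of genes named in the text in each of the 8 PC9 libraries, minus the mean of both shCTL libraries. Red is above and blue below that mean, vertical lines part the groups, and the horizontal line parts genes called higher from genes called lower with shLCN2_2. The shLCN2_2 columns look alike, and for SLC7A11, AKR1C1 and AKR1B10 the shLCN2_1 columns are near 0 while the shLCN2_2 columns are blue.

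The direction of calls changed with the level and the base composition of genes. Among 2708 genes with a mean of 10 to 50 normalised reads, 6.35% were called higher and 0.812% lower. Among 277 genes at 20000 and over, 15 (5.42%) were called higher and 99 (35.7%) lower. Between these ends the share called lower went up with each step in level. Genes were also put into 5 equal groups by GC content. In the group of lowest GC content 6.35% were called higher and 13.5% lower, and in the group of highest GC content 13.9% higher and 2.19% lower. The Spearman correlation across genes of GC content with the fold change was 0.241, and that of the mean value was -0.176. The falls of the ribosomal, chaperone and glycolysis groups are falls of abundant genes, and the part of level and base composition in them was not tested beyond removing the GC trend. With the GC trend removed 3702 genes were called. Ribosomal protein genes then had 25 lower and 0 higher, NRF2 antioxidant genes 16 lower and 1 higher, and interferon-stimulated genes 25 higher and 0 lower. Some lists weakened instead. Epithelial junction and keratin genes had 8 higher and 2 lower (median 0.07), and squamous genes 4 higher and 0 lower (median 0.11). Collagens and cross-linking enzymes had 3 higher and 3 lower (median 0.06), and the median of mucins and airway proteins was 0.29.

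**Figure D4:**
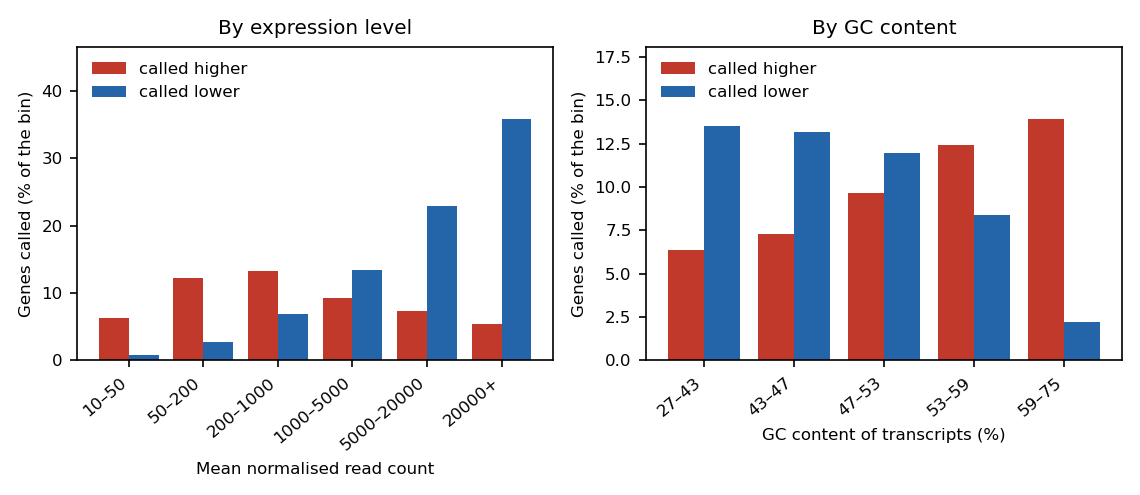
Percent of genes called higher (red) and lower (blue) with shLCN2_2 against shCTL in PC9 LeptoM cells. The left panel groups genes by mean normalised read count over the 8 libraries, and the right panel into 5 equal groups by transcript GC content. Calls of lower genes rise with level to 35.7%, and calls of higher genes rise with GC content to 13.9%.

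Set against the other LCN2 hairpin, shLCN2_2 gave 8529 calls, or 54.5% of genes tested, with 4523 higher and 4006 lower. With the GC trend removed the number was 5148, and with upper-quartile scaling the balance turned, at 4128 higher and 5033 lower. Of the 3053 genes called against shCTL, 2246 (73.6%) also differed from shLCN2_1, of which 951 were higher with shLCN2_2 than in both groups and 1142 lower than in both. Both comparisons share the shLCN2_2 libraries. SPP1, which encodes osteopontin, had 1110.4 and 991 normalised reads with shLCN2_2, 2681 and 2883 with shLCN2_1, 2355 and 2384 with shCTL and 7162 and 6764 in parental cells. GTF2H1, a subunit of the transcription and repair factor TFIIH, had 2983 and 3153 with shLCN2_2, 8193 and 8504 with shLCN2_1, 6879.7 and 6781 with shCTL and 8073 and 7659.9 in parental cells. STRADB, a partner of the kinase LKB1, had 270.2 and 259.8 with shLCN2_2, 919 and 999 with shLCN2_1, 649.6 and 633 with shCTL and 1161 and 1059 in parental cells. The shLCN2_2 libraries were the lowest of the 8 for all 3. Against shLCN2_1 they differed by -1.41, -1.44 and -1.85 log2 units (adjusted p = 5.36e-05, 4.71e-05 and 5.36e-05), and against shCTL by -1.18, -1.15 and -1.27 (adjusted p = 0.000486, 0.000211 and 0.000602). EAF1, a cofactor of transcription elongation, had 1123 and 1133 with shLCN2_2, 3167 and 3101 with shLCN2_1 and 2352 and 2363 with shCTL, a difference of -1.47 from shLCN2_1 (adjusted p = 5.16e-05). These 4 genes were called against shCTL in all 4 fits without a compared library.

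Among genes higher than in both groups, RASD2, a small GTPase, had 55.5 and 48.5 normalised reads with shLCN2_2, 4.20 and 2.20 with shLCN2_1 and 17.4 and 16.3 with shCTL (3.70 log2 units against shLCN2_1, adjusted p = 7.94e-05). COL5A1, CST4, CST2 and WNT3A were also among the 6 with the largest rise over shLCN2_1, by 4.96, 3.91, 3.72 and 3.95 log2 units (adjusted p = 0.00102, 0.000502, 0.00182 and 0.00374). The fold change between the hairpins followed GC content, with a Spearman correlation across genes of 0.699. The list counts given next stand beside 28.9% of all genes called higher and 25.6% lower, and the part of GC content in them was not tested. With shLCN2_2 against shLCN2_1, 18 of 30 extracellular proteases and inhibitors were higher and 1 lower (median 0.75), 17 of 26 Wnt genes higher and 1 lower (median 0.83), 16 of 22 collagens and cross-linking enzymes higher and 0 lower (median 1.38) and 14 of 27 squamous genes higher and 0 lower (median 1.09). NRF2 antioxidant genes were divided, with 8 of 27 higher and 12 lower (median -0.25), and so were ribosomal protein genes, with 14 of 35 higher and 12 lower (median -0.08).

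In MDA231 LeptoM cells, where LCN2 was scarcely expressed, few genes were called with shLCN2_2. LCN2 had 4.31 and 4.93 normalised reads with shLCN2_2 (6 and 7 reads), against 19.3 and 13.7 with shCTL (27 and 18 reads), and lay under the minimum mean. Of 14387 genes tested, 20 (0.139%) were called higher and 55 (0.382%) lower, 0.521% in all, beside 14% at an unadjusted p under 0.05. The count was 0 without shLCN2_2 replicate 1 or 2 or without shCTL replicate 1 or 2, 2 without either shLCN2_1 replicate, and 366 and 359 without parental replicate 1 and 2, whose libraries held 11592790 and 11613984 gene reads. In the same line edgeR called 188 genes and DESeq2 350, and with the GC trend removed limma called 407 higher and 645 lower. The interferon-stimulated genes had 0 members higher and 1 lower of 41 (median -0.16), NRF2 antioxidant genes 1 higher and 0 lower of 24 (median 0.11), and ribosomal protein genes 0 higher and 1 lower of 35 (median -0.03). MHC class II presentation had 4 of 14 higher and 0 lower (median 0.52).

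Of 13392 genes tested in both lines, 19 were called in both, 11 in the same direction and 8 in opposite directions. The 11 are 0.406% of the 2710 PC9 calls and 18.3% of the 60 MDA231 calls in that set. PC9 calls made up 20.2% of the 13392 genes, 9.30% higher and 10.9% lower. ANK1, an ankyrin of the membrane skeleton, had 96.5 and 85.7 normalised reads with shLCN2_2 and 10.1 and 26.4 with shCTL in PC9 and 311 and 301 with shLCN2_2 and 135 and 146 with shCTL in MDA231. It rose by 2.40 and 1.12 log2 units (adjusted p = 0.01 in PC9 and 0.0373 in MDA231). RAI14, an actin-binding protein, had 4204 and 4164 with shLCN2_2 and 7889.9 and 7567 with shCTL in PC9 and 7866 and 8602 with shLCN2_2 and 12868 and 13922 with shCTL in MDA231, falls of -0.88 and -0.70 (adjusted p = 0.00157 and 0.0302). HTRA1 rose in MDA231 too, by 0.89 (adjusted p = 0.0302), and CCNA2, a cyclin of S phase and mitosis, fell in both lines, by -0.25 in PC9 and -0.99 in MDA231 (adjusted p = 0.0183 and 0.0302). AKR1C1 went the other way, with 780.4 and 765 with shLCN2_2 and 273 and 281 with shCTL in MDA231, a rise of 1.47 (adjusted p = 0.0373). CLDN1, higher with shLCN2_2 in PC9, fell by -0.72 in MDA231 (adjusted p = 0.0373). The effect of shLCN2_2 differed between the lines for 786 of the 13392 genes (5.87%) by the test of the difference.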

How the data were processed

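RNA was measured by polyA-selected, stranded TruSeq sequencing, per the labels' protocols. The authors deposited 1 table per line whose values are a gene-level signal, namely reads per gene divided by a size factor. Per the submitters' processing notes, tools included HTSeq 0.5.3 and DESeq2 1.22.1, and the build was hg19. For antisense genes and near copies the values are uncertain, because the aligner, the annotation and HTSeq's use of strand are not given in the sources used here. Whole reads were recovered from 100% of values within 0.001 of a whole number. In PC9, 4 lines that name no gene took 24.4 to 36.5% of a library's reads and were left out. The highest share was in parental replicate 2, where reads without a unique alignment equalled 42.4% of gene reads.

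Genes with a mean of at least 10 over a table's 8 libraries were tested on the log2(value + 1) scale, which understates the change of low genes. Limma 3.58.1 (R 4.3.3) was fitted to all 4 groups with a trended prior (4 residual and 4.12 prior degrees of freedom in PC9). Tests were two-sided with Benjamini-Hochberg adjustment over all genes tested, and calls needed an adjusted p below 0.05. The lines were compared from the fitted effects and their SEs. Alternatives were edgeR 4.0.16 and DESeq2 1.42.0 on recovered reads, a pseudocount of 5, a minimum mean of 50 or none, upper-quartile scaling, removal of each library's GC trend, a replicate block, only the compared groups, and fits without single libraries or without both shLCN2_1 libraries. Gene positions and GC content are from GENCODE 29 (GRCh38), matched by gene ID for 15275 genes, and promoters from RefSeq. Floors of 3 reads cover counting error only.

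The gene groups and lists, 54 in all, were chosen with earlier results of these data known. Named genes are LCN2, the 12 highest and 12 lowest fold changes and the 8 largest rises and falls in value among calls without overlap whose mean reached 50 in either group, up to 4 called members of each list, and up to 6 each way called in both lines or against shLCN2_1. Y-linked genes, XIST and rows with no symbol were left out. Some of these genes are not described.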

Additional observations from a re-analysis of the deposited data

Results flagged for a closer look

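The results listed here had an effect of shLCN2_2 that differed between PC9 and MDA231 LeptoM cells at an adjusted p under 0.05, by the test of the difference over the 13392 genes tested in both lines. Each value is the log2 fold change against shCTL in PC9 minus that in MDA231, and the lines were normalised separately. The genes are those given with values in the text. Most were named for the call and size of the PC9 effect, which enters the difference tested, so the choice favours genes that differ. Of 174 genes under the naming rule that were tested in both lines, 62 differed, beside 5.87% of all 13392 genes. The cause of the differences was not tested.

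Among immune genes the difference was 3.85 for OAS2, 2.97 for IFI27, 2.21 for IFI6, 1.69 for CD74, 1.35 for CTSS, 1.34 for C1R and 1.14 for HLA-B. IL6 differed in the other direction, by -2.33. Among secreted, matrix and junction genes it was 3.59 for COL5A1, 2.80 for CST4, 2.26 for COL17A1, 1.43 for CLDN1, -1.85 for COL8A1 and -1.20 for CLMP. Among signalling genes it was 2.81 for ARHGAP31, 1.94 for IGF2, 1.26 for HTRA1, 0.88 for TGFBR3 and -2.02 for NRG1, and among lysosome and autophagy genes 0.78 for WIPI1 and -0.73 for GLA. Among the small RNA machinery, choroid plexus and lipid genes under other observations it was -0.61 for AGO1, -0.54 for TNRC6A, 1.72 for FOLR1 and 1.08 for SCD5.

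In the iron handling list the difference was 0.92 for CYBRD1, 0.76 for BDH2, -0.44 for FTH1 and -1.26 for FTL, with -1.70 for FTLP2, whose reads may belong to FTL. In the antioxidant, amino acid and translation groups it was -2.76 for AKR1C1, -1.33 for SLC7A11, -0.84 for ASNS, -0.48 for GARS, -0.55 for YARS, -0.63 for EEF1A1 and -0.90 for ODC1. Among the remaining genes it was -1.58 for STRADB, -1.26 for GTF2H1, -0.70 for EAF1, -1.57 for PPIF, -0.49 for MCM7, -0.56 for HYOU1 and 0.73 for CCNA2. For CCNA2 and HTRA1 both lines moved in the same direction with different sizes, while AKR1C1 and CLDN1 were called in opposite directions.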

How the results depend on the processing

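The PC9 count of 3053 calls stayed within 1.5 times with a pseudocount of 5, each filter, edgeR (3315), DESeq2 (3251), upper-quartile scaling (2989) and removal of the GC trend (3702). It was 8045 with only the compared groups in the fit and 5429 without both shLCN2_1 libraries, and 361 to 5469 without 1 library. Same-numbered replicates of shLCN2_2 and shCTL did not deviate together (correlation across genes -0.0067). The labels do not say what a number shares, and this value, for these groups only, cannot settle whether same-numbered libraries were paired. With the replicate block 2680 genes were called in PC9, 1 in MDA231 and 0 in the same direction in both lines. LCN2 kept its direction in every fit and was -1.41 to -1.23 without 1 library, with adjusted p between 3.28e-05 and 0.0907. Against shLCN2_1 the count was 5148 with the GC trend removed, and 5817 to 9453 without 1 library.

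In MDA231 the count of 75 calls was 188 with edgeR, 350 with DESeq2, 1052 with the GC trend removed, 204 with only the compared groups and 0 to 366 without 1 library. The 11 genes called in the same direction in both lines became 30 with edgeR, 66 with DESeq2, 228 with the GC trend removed, 72 with only the compared groups and 0 to 60 without 1 library. The cause of these shifts was not tested. Of 215 genes under the naming rule, 52 were called in all 4 fits without a compared library and 127 in none, and edgeR kept 212. Depth limits the genes with few reads in the shCTL group, such as SERPING1 with 8.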

Other observations

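Further gene groups were compared between shLCN2_2 and shCTL in PC9. Their counts stand beside 9.81% of all genes called higher and 9.7% called lower, and some lie near or under those shares. The small RNA machinery, which also processes hairpins, had 2 of 13 members higher and 3 lower (median 0.07; 3 and 4 without both shLCN2_1 libraries, 2 in each fit without 1 of the 4 compared libraries). AGO1, an Argonaute protein, had 1467 and 1376 normalised reads with shLCN2_2, 2486 and 2597 with shLCN2_1 and 2222 and 2165 with shCTL, and its partner TNRC6A had 2658 and 2778 with shLCN2_2, 4748 and 4622 with shLCN2_1 and 4102 and 3993 with shCTL. For both genes the shLCN2_2 libraries were the lowest of the hairpin groups, with falls of -0.63 and -0.57 log2 units against shCTL (adjusted p = 0.00192 and 0.0017) that were called in all 4 fits without a compared library. TNRC6B and TNRC6C, of the same family, rose by 0.39 and 0.38 (adjusted p = 0.0138 and 0.0378).

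Hypoxia response genes had 7 of 27 higher and 3 lower (median 0.16; 13 and 4 without both shLCN2_1 libraries, 2 to 4 without a compared library), led by ANGPTL4, a secreted lipase inhibitor, at 1.09 (adjusted p = 0.0479), a call lost with the GC trend removed. Of 10 transporters and channels of the choroid plexus, the epithelium that makes cerebrospinal fluid, 3 rose and 0 fell (median 0.47; 3 and 0 without both shLCN2_1 libraries, 1 to 2 without a compared library). FOLR1, the folate receptor, had 331 and 308 normalised reads with shLCN2_2, 152 and 130.0 with shLCN2_1, 99.1 and 66.1 with shCTL and 30.8 and 32.9 in parental cells, so the shLCN2_2 libraries were the highest of the hairpin groups (1.97 log2 units against shCTL, adjusted p = 0.00163). Of 26 cholesterol synthesis genes 1 rose and 0 fell (median 0.13), but 9 rose and 3 fell without both shLCN2_1 libraries, and 0 to 1 was called without a compared library. In fatty acid synthesis and storage 2 of 22 rose and 1 fell (median 0.12; 6 and 3 without both shLCN2_1 libraries, 2 in each fit without a compared library). SCD5, a desaturase, rose by 0.97 (adjusted p = 0.000945) and ELOVL6, a fatty acid elongase, fell by -0.85 (adjusted p = 0.00223). MAPK pathway output genes, which report signalling from EGFR, had 1 of 21 higher and 4 lower (median -0.11; 1 and 7 without both shLCN2_1 libraries, and 0 in each fit without a compared library). SPRED1, an inhibitor of that pathway, and the transcription factor ETV5 fell by -0.41 and -0.28 (adjusted p = 0.0326 and 0.0226), and CCND1, cyclin D1, rose by 0.40 (adjusted p = 0.0159), a call lost with the GC trend removed. The unfolded protein response had 2 of 22 higher and 5 lower (median -0.05; 2 and 6 without both shLCN2_1 libraries, 0 to 1 without a compared library). SEL1L, which helps to clear misfolded proteins, and the chaperone HYOU1 fell by -0.42 and -0.36 (adjusted p = 0.00383 and 0.0071), while DNAJB9, another chaperone of the endoplasmic reticulum, rose by 0.54 (adjusted p = 0.0124).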
